A study of Mus musculus with 30 samples.

Results

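The proteasome subunit genes were followed in RNA-seq libraries of mouse left liver lobes. They were taken as the protein-coding genes with a symbol of Psma, Psmb, Psmc, Psmd or Psme followed by a digit and with at least 300 counts over the 30 libraries. Of 49 symbols of that form, 44 were kept out of the 51826 genes in the count table, 4 were pseudogenes and 1, Psmb11, had a total of 64 counts. Just inside the minimum lay Psmc3ip with 325 counts and Psma8 with 439. Psmc3ip carries a Psmc symbol but encodes a recombination protein, so 43 of the 44 belong to the proteasome. All 44 passed the filter on low counts.

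Male mice of the strain labelled C57BL16 received 0.2 Gy of 56Fe ions at 600 MeV per nucleon or no irradiation. Livers were collected 30, 60, 120, 270 and 360 days later, called months 1, 2, 4, 9 and 12, which gave 10 groups of 3 libraries, each labelled as a biological replicate. No group carried a transgene or any other treatment according to the labels. The comparisons ask whether subunit transcripts changed after irradiation at each month, and between successive months within each arm.

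The 26S proteasome degrades proteins tagged with ubiquitin. Its 20S core is a stack of rings of alpha and beta subunits, in which the beta1, beta2 and beta5 subunits (Psmb6, Psmb7 and Psmb5) cut the substrate. The 19S cap holds a ring of ATPases (Psmc1 to Psmc6) that unfolds the substrate and non-ATPase subunits that bind, deubiquitinate and position it. Immune cells hold the immune subunits Psmb9, Psmb10 and Psmb8 in place of beta1, beta2 and beta5, and interferon-gamma induces them in other cells, hepatocytes included, together with the PA28 activator (Psme1 and Psme2). In most cells the constitutive genes are raised together by Nfe2l1 when proteasome activity falls. By role the 44 genes were 7 alpha-ring genes, 4 non-catalytic beta genes, 3 constitutive and 3 immune catalytic genes, 6 ATPases, 11 other cap subunits, 3 cap assembly chaperones (Psmd5, Psmd9 and Psmd10), 5 activators, the germ-line alpha subunit Psma8 and Psmc3ip. The 34 alpha, constitutive beta, cap and chaperone genes are called constitutive below.

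Short stretches of 6 start-site regions are shown to give the letters behind the motif counts that follow. The windows are those of RefSeq on GRCm38.p6, from 250 bases before to 50 bases after the start, and 37 of the 44 genes had one. Capitals mark the motif, in its own letters or as the complementary strand, and each stretch of 30 bases is written 5′ to 3′ on the gene's strand. Psmb5 (chr14:54618024-54618053, minus strand) and Psmb6 (chr11:70525327-70525356, plus strand) held TGACNNNGC, the core of the antioxidant response element that NRF-family factors bind. Psmb8 (chr17:34198087-34198116, plus strand) held TTCNNNGAA, the gamma-activated site of interferon-gamma signalling. Psmc1 (chr12:100110163-100110192, plus strand), Psmd2 (chr16:20651615-20651644, plus strand) and Psmd6 (chr14:14120973-14121002, minus strand) held the ETS site CCGGAA.
Psmb5: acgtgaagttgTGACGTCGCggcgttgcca
Psmb6: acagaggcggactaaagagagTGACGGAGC
Psmb8: gtcctccgctgTTCCCAGAAgatgcccccc
Psmc1: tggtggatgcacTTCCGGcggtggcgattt
Psmd2: tccgcagggcgcTTCCGGtctggaggacaa
Psmd6: ccagagacgcgaCCGGAAgtcagactggcg

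Searched on both strands, the ETS site was present in 15 of the 28 constitutive genes with a window (53.6%) and in 0 of the 3 immune genes, against 16.7% of 27025 genes. The antioxidant response element core was present in 5 of 28 constitutive genes (17.9%) and 0 of 3 immune genes, against 13.99% of all genes. The gamma-activated site was found in 1 of 28 constitutive genes (Psmd2) and 1 of 3 immune genes (Psmb8), against 9.55% of all genes. The interferon-stimulated response element was found in 3 of 28 and 0 of 3, against 3.99%. The CCAAT box was found in 11 of 28 and 1 of 3, against 41.1%. These are matches of letters with no test, and a window without a match says only that the letters are absent there. In Psmd2 the ETS and gamma-activated matches shared no base.

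Per kilobase of exon, the most abundant genes over the 30 libraries were Psmb4, a non-catalytic beta subunit, at 61.4 CPM per kb, Psma6 of the alpha ring at 58.5 and the ATPase Psmc1 at 50.1. CPM is the count scaled to library size with TMM factors. Psmb6 was at 47.8 CPM per kb, Psmb5 reached 21.2 and Psmb7 16.4. The immune Psmb10 was at 14.9 CPM per kb, near Psmb7, while Psmb8 at 3.77 and Psmb9 at 3.65 stood 41st and 42nd of the 44. The chaperones were also low, at 3.99 to 5.95 CPM per kb. Psma8 was lowest at 0.421 CPM per kb. In CPM without regard to length, Psme4, which encodes the activator PA200, was highest at a mean of 237 and Psmc3ip lowest at 0.795.

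Library totals ran from 7995248 to 20215995 counts. Hepatocyte markers summed to 34301 to 114889 CPM per library, as the tissue label says. Gm26917, an annotated long noncoding RNA, held between 3.04% and 7.57% of each library at months 1 and 2 (12 libraries) and between 0.452% and 2.04% at the later months (18 libraries). Month and this difference in library makeup cannot be told apart, so no test was made across that line. The central clock gene Arntl and its output gene Dbp also differed at month 1: Arntl averaged 29.9 CPM after irradiation and 2.21 in controls (log2 difference 3.75 ± 0.42 SE, adjusted p = 1.56e-05, edgeR). Dbp averaged 12.2 and 127 CPM (−3.37 ± 0.65, adjusted p = 0.00486). At month 2 neither passed, with 0.75 ± 0.36 for Arntl (adjusted p = 0.222, edgeR) and −1.42 ± 0.62 for Dbp (adjusted p = 0.184). Between months 1 and 2 in controls Arntl also differed, by 2.56 ± 0.42 (adjusted p = 0.000796, edgeR), and Dbp by −1.69 ± 0.60 (adjusted p = 0.0795). The part of these differences in the proteasome results was not tested.

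The constitutive genes stood higher in the later libraries, and the immune subunits differed by less than the median constitutive gene, though not by less than each of them. Between months 1 and 2 and months 4 to 12, the median constitutive gene differed by 0.97 on the log2(CPM + 0.5) scale, a ratio of 1.96, with a range of 0.29 to 1.34 over the 34 genes. In 25 of the 34, every later library lay above every earlier one, a pattern that 7.21% of all tested genes showed. The largest differences were in Psmd2, the large scaffold subunit of the cap, at 1.34 and in Psmb1 at 1.29. The immune subunits differed by 0.61 for Psmb8, 0.63 for Psmb9 and 0.22 for Psmb10, and in 0 of the 3 was every later library above every earlier one. The constitutive Psmd11 at 0.29, Psmd9 at 0.33 and Psmd4 at 0.50 lay below Psmb8 and Psmb9, and no test compared the classes. The median over all tested genes was −0.10.

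**Figure D1:**
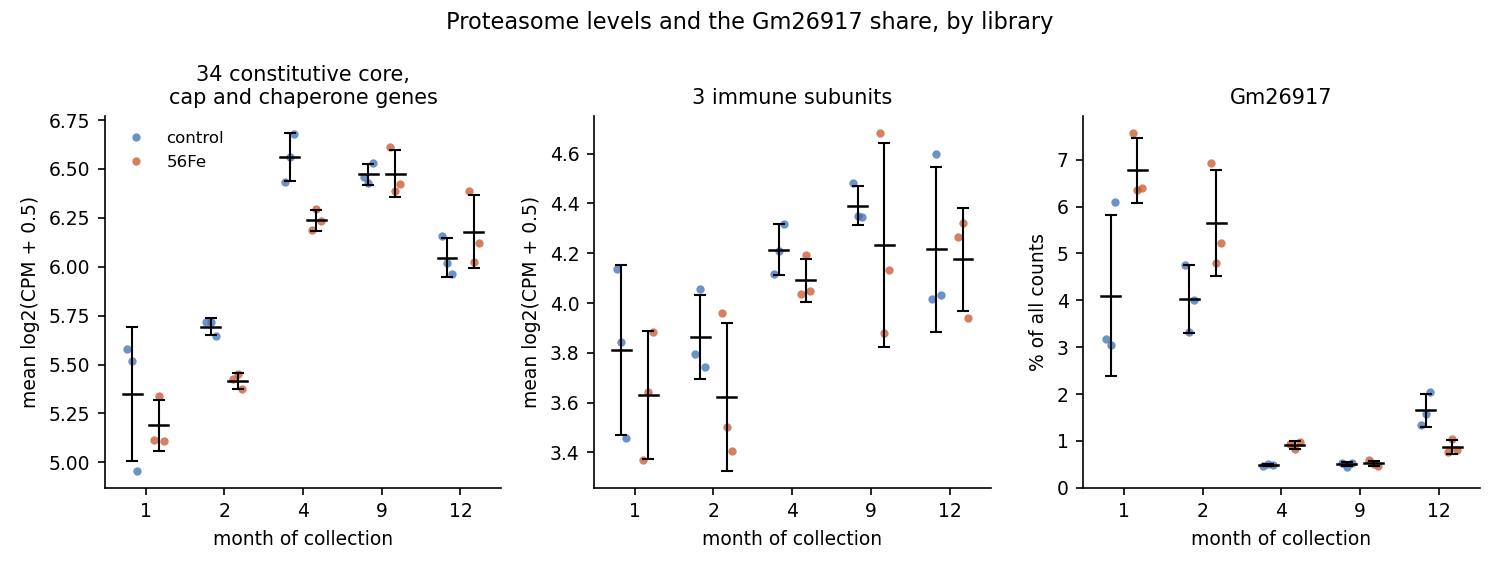
Mean log2(CPM + 0.5) of the 34 constitutive genes and of the 3 immune subunits, and the share of counts taken by Gm26917, by month of collection. Points are libraries, bars the mean ± SD of 3. The constitutive genes stand at 4.96 to 5.72 in months 1 and 2 and at 5.96 to 6.68 later, while Gm26917 runs the other way.

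Across the 10 groups, the mean log2 level of the constitutive genes in controls was 5.35 ± 0.34 (SD, n = 3), 5.69 ± 0.04, 6.56 ± 0.12, 6.47 ± 0.05 and 6.05 ± 0.10 in order of month. After irradiation it was 5.19 ± 0.13, 5.42 ± 0.04, 6.24 ± 0.05, 6.48 ± 0.12 and 6.18 ± 0.19. Irradiated and control libraries did not overlap on this measure at months 2 and 4 and overlapped at the other months. Irradiated month 1 was the lowest group for 30 of the 34 constitutive genes, and control month 4 the highest for 23. For the immune subunits the controls were at 3.81 ± 0.34, 3.86 ± 0.17, 4.21 ± 0.10, 4.39 ± 0.08 and 4.22 ± 0.33, and the irradiated livers at 3.63 ± 0.26, 3.62 ± 0.30, 4.09 ± 0.09, 4.23 ± 0.41 and 4.18 ± 0.21. The 2 arms overlapped on the immune measure at every month.

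Psmb8, the immune beta5 subunit, was at 13.1, 8.27 and 6.58 CPM in the month 1 control libraries and at 7.01, 8.52 and 12.3 after irradiation. At month 2 the control libraries were at 8.85, 13.3 and 10.1 and the irradiated at 11.4, 8.61 and 7.57. At month 4 they were at 11.8, 12.9 and 15.5 against 13.3, 13.5 and 12.0 CPM. The arms overlapped at each of these months. At month 9 Psmb8 was at 16.4, 17.2 and 16.01 in controls and 19.3, 11.95 and 14.85 after irradiation. At month 12 it was at 11.05, 20.8 and 12.6 in controls and 16.1, 18.7 and 12.5 after irradiation. The log2 differences between the arms, irradiated minus control, were −0.02 ± 0.26 (SE), −0.22 ± 0.25, −0.05 ± 0.25, −0.11 ± 0.24 and 0.09 ± 0.24 at months 1, 2, 4, 9 and 12, and none passed.

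Psmb9, the immune beta1 subunit, was below control in the mean at all 5 months, without passing the test at any. At month 9, where the difference was largest, the control libraries were at 18.7, 18.2 and 17.4 CPM and the irradiated at 19.6, 12.25 and 12.25 (log2 difference −0.31 ± 0.20 SE, adjusted p = 0.491, edgeR). One irradiated library thus stood above all 3 controls. The difference was −0.24 ± 0.21, −0.23 ± 0.21, −0.23 ± 0.20 and −0.11 ± 0.20 at months 1, 2, 4 and 12. Psmb10, the immune beta2 subunit, differed by −0.36 ± 0.21, −0.26 ± 0.21, −0.11 ± 0.20, 0.03 ± 0.20 and −0.16 ± 0.20 at the 5 months in order. At month 9 its irradiated libraries ran from 19.6 to 42.0 CPM and enclosed the controls, at 25.04 to 33.8.

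The immune subunits passed an adjusted p of 0.05 in 0 of 39 tests over 13 comparisons in edgeR, and 1 of the 39 had an unadjusted p under 0.05, Psmb9 in the mean irradiation effect over the months (−0.22 ± 0.09 SE, adjusted p = 0.147). DESeq2 also made 0 calls. With limma voom 2 passed, Psmb9 and Psmb10, both in that mean effect, where 13.6% of all genes passed with voom and 5.26% in edgeR. Their spread within groups was wider than that of the median constitutive gene, with SDs on the log2 scale of 0.257 to 0.318 against 0.172. The range over the 34 was 0.112 to 0.262, so the 2 sets overlapped at Psmb9 (0.257). In the second control library of month 12 Psmb8, Psmb9 and Psmb10 were at 20.8, 19.5 and 33.0 CPM, above both other control libraries of that month. In that library 10 lymphocyte markers summed to 148 CPM and 7 macrophage markers to 873, against 31.6 and 35.1, and 137 and 163, in the other 2. The markers and subunits did not always move together: among irradiated libraries of month 9 the third had the highest lymphocyte (65.7 CPM) and macrophage (551 CPM) sums, and the first, at 50.8 and 310, had the higher mean log2(CPM + 0.5) of the 3 immune subunits (4.68 against 4.13). Without the second control library the month 12 differences were 0.40 for Psmb8, 0.05 for Psmb9 and 0.01 for Psmb10, and none passed. The part of those markers in the immune subunit levels was not tested, and in bulk liver more cells of a type cannot be told from more RNA per cell.

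**Figure D2:**
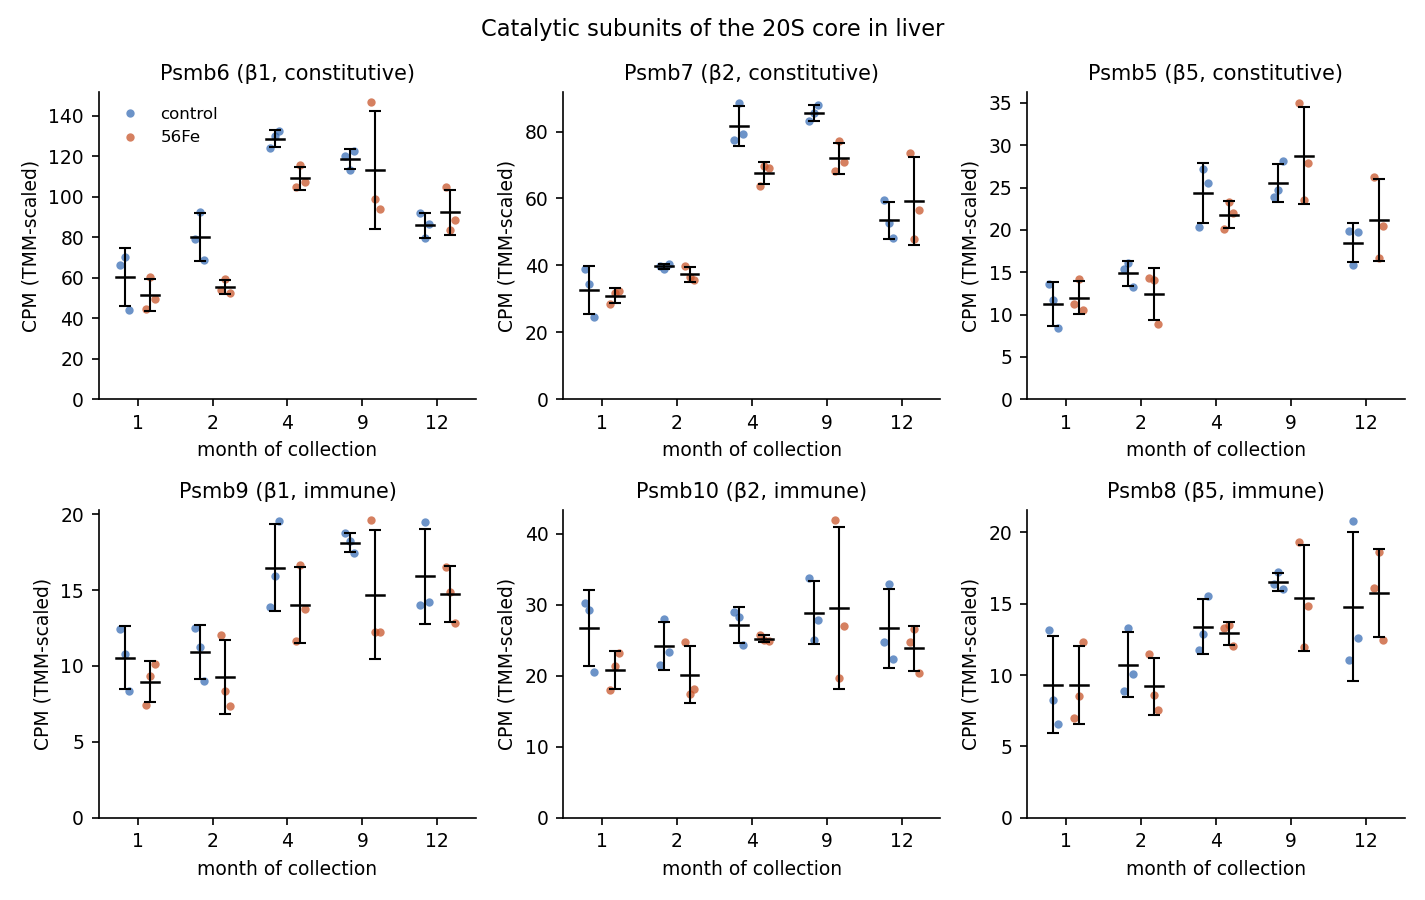
Level of the 3 constitutive catalytic subunits (top) and the immune subunit that replaces each (bottom), in TMM-scaled CPM by month of collection. Points are libraries and bars the mean ± SD of 3. Psmb6 at months 2 and 4 and Psmb7 at months 4 and 9 show no overlap between arms, while the immune subunits overlap at every month.

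The constitutive partners were followed in the same way. Psmb6, the beta1 subunit, was at 79.3, 92.3 and 68.9 CPM in month 2 controls and at 54.1, 59.3 and 52.7 after irradiation, so the arms did not overlap. Its log2 difference was −0.53 ± 0.16 (SE), just short of the threshold in edgeR (adjusted p = 0.0535), and it passed in DESeq2 (adjusted p = 0.0321). At month 4 Psmb6 was at 124, 130 and 132 CPM in controls and 105, 115.5 and 107 after irradiation (−0.24 ± 0.16). Its differences at months 1, 9 and 12 were −0.23 ± 0.16, −0.07 ± 0.16 and 0.10 ± 0.16.

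Psmb7, the beta2 subunit, was at 77.4, 88.6 and 79.2 CPM in month 4 controls and 63.7, 69.6 and 69.2 after irradiation. The arms did not overlap there, nor at month 9, with differences of −0.28 ± 0.14 (SE) and −0.25 ± 0.14, and neither passed. At months 1, 2 and 12 Psmb7 differed by −0.08 ± 0.14, −0.09 ± 0.14 and 0.15 ± 0.14. Psmb5, the beta5 subunit, overlapped between the arms at all 5 months, with differences of 0.09 ± 0.20, −0.25 ± 0.19, −0.16 ± 0.19, 0.17 ± 0.18 and 0.19 ± 0.19 in order of month. Exons of Psmb7 overlap Nek6 on the other strand over 11.8% of their length, those of Psmb8 overlap Gm20496 over 14.7% and those of Psmb9 overlap Tap1 over 5.8%. The strand setting of the counts is not given in the sources used here, so reads of such pairs may be shared.

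The ratio of an immune subunit to its partner varied between groups, most widely for Psmb10 and Psmb7. Their log2 ratio in controls was −0.29 ± 0.07 (SD, n = 3), −0.72 ± 0.22, −1.59 ± 0.15, −1.58 ± 0.25 and −1.02 ± 0.31 in order of month. After irradiation it was −0.58 ± 0.09, −0.91 ± 0.20, −1.42 ± 0.10, −1.35 ± 0.64 and −1.30 ± 0.39. At month 1 the irradiated libraries lay at −0.66 to −0.49, all below the controls at −0.36 to −0.23. The ratio of Psmb8 to Psmb5 ran between group means of −0.91 and −0.31, and that of Psmb9 to Psmb6 between −2.98 and −2.45. These ratios carry no test. They use counts per gene without regard to length, so only their differences between groups can be read.

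At month 1, 3 of the 44 genes passed as lower after irradiation and 0 as higher. Of all 19685 genes tested, 3.11% passed as lower, 1.49% as higher and 4.6% in either direction. Psma6 of the alpha ring was at 29.3, 34.4 and 23.6 CPM after irradiation and at 44.9, 44.5 and 31.7 in controls. It fell by 0.47 ± 0.13 on the log2 scale (SE, adjusted p = 0.0363, edgeR), although 1 control library lay below the highest irradiated one. Psma5, also of the alpha ring, was at 15.98, 18.15 and 16.4 CPM against 28.1, 24.7 and 17.1, so 1 control library again lay within the irradiated range, and fell by 0.47 ± 0.14 (adjusted p = 0.0459, edgeR). Psme2b, a retrocopy of Psme2, was at 1.598, 1.72 and 1.16 CPM against 3.27, 2.73 and 2.35 in controls and fell by 0.89 ± 0.25 (adjusted p = 0.0331, edgeR). Psme2b and Psme2 are near-identical, so their split of reads is uncertain.

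Of the 44 genes, 38 lay below control at month 1, with a median of −0.21 against −0.03 over all genes tested. That median was −0.07 without the first control library of month 1 (28 below), −0.04 without the second (31 below), −0.39 without the third (41 below) and −0.09 without the first irradiated library (31 below). The arms did not overlap in 2, against 18.6% of all genes. The third control library of month 1 stood low for the whole family, with a constitutive mean of 4.96 against 5.58 and 5.52 in the other 2. Without it 16 genes passed, as did 9.15% of all genes, and without any other library 0 or 1 passed. With log2 CPM of Gm26917 as a covariate 0 passed, as did 0.574% of all genes, with 27 below 0 and a median of −0.07. Gm26917 was at 4.10% of counts in month 1 controls and 6.77% after irradiation in the mean.

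At month 2 no member passed in edgeR, where 1.8% of all genes passed as lower, 2.57% as higher and 4.37% in either direction. An unadjusted p under 0.05 was reached by 19 of the 44 and by 4260 of the 19685 genes. DESeq2 called 2, Psmb6 and Psmd6, and 9.09% of the genes it gave an adjusted p. All 28 members whose libraries did not overlap between the arms were lower after irradiation. In all 34.2% of genes tested did not overlap in one direction or the other. In total 41 of the 44 lay below control, with a median of −0.26 against −0.02 over all genes. Psmd6, a cap subunit, was at 43.4, 40.2 and 42.7 CPM after irradiation and 51.3, 61.6 and 58.8 in controls (−0.44 ± 0.14 SE, adjusted p = 0.0697, edgeR). Psmd9, a chaperone of cap assembly, was at 25.2, 23.6 and 20.95 CPM against 29.4, 28.5 and 30.8 (−0.34 ± 0.11, adjusted p = 0.0712, edgeR).

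At month 4, 3 genes of the alpha ring passed as lower after irradiation and none as higher, where 1.77% of all genes passed as lower, 1.82% as higher and 3.6% in either direction. Psma1 was at 96.6, 104 and 104 CPM after irradiation and 138, 152 and 173 in controls, and fell by 0.60 ± 0.15 on the log2 scale (SE, adjusted p = 0.0251, edgeR). Psma4 was at 87.2, 91.1 and 94.1 CPM against 120.5, 131 and 137 and fell by 0.51 ± 0.12 (adjusted p = 0.0187, edgeR). Psma6 was at 79.9, 83.3 and 80.4 CPM against 103, 110 and 121 and fell by 0.45 ± 0.13 (adjusted p = 0.046, edgeR). In all 3 the irradiated libraries lay below every control.

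Most of the rest of the family lay the same way at month 4, without passing. Below control were 42 of the 44, with a median of −0.31 against 0.04 over all genes. By role the medians were −0.44 for the alpha ring, −0.36 for the non-catalytic beta genes, −0.32 for the ATPases, −0.29 for the other cap subunits and −0.11 for the immune subunits. The libraries did not overlap in 33 of the 44, of which 32 were lower, against 30.2% of all genes. In 5 of the 6 fits that left out a library 0 passed. Without the first control library 3 did, Psma1, Psma4 and Psmd10, as did 1.85% of all genes. DESeq2 called 12, and 8.85% of the genes it gave an adjusted p. With the Gm26917 covariate 0 passed, as did 0.00508% of all genes, with 39 below 0 and a median of −0.17. Gm26917 itself was higher after irradiation at month 4, by 0.77 ± 0.22 on the log2 scale (SE, adjusted p = 0.0459, edgeR). That call held in 0 of 6 fits that left out a library, and its part in the result was not tested.

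At month 9, 1 gene passed as lower, Psmd9, where 0.498% of all genes passed as lower, 1.16% as higher and 1.66% in either direction. Psmd9 was at 27.7, 30.3 and 25.1 CPM after irradiation and 40.35, 35.3 and 35.9 in controls, and fell by 0.42 ± 0.11 on the log2 scale (SE, adjusted p = 0.0461, edgeR). The call held in 1 of 6 fits that left out a library. Its exons overlap Gm26745 on the other strand over 25.5% of their length. For the other genes the direction was split, with 21 of 44 below control and a median of 0.01. The arms did not overlap in 6, of which 3 were lower, against 18.2% of all genes. The sign of that median was not stable: it was −0.02 with upper quartile factors and with voom, −0.01 with the replicate block, and between −0.05 and 0.07 when single libraries were left out. Psme2b differed by −0.55 ± 0.22 (adjusted p = 0.188, edgeR).

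At month 12 no member passed in edgeR, and neither did any of the 19685 genes (0% in background). An unadjusted p under 0.05 was reached by 6 of the 44 and by 2648 of all genes, and DESeq2 also called 0. Above control lay 32 of the 44, with a median of 0.13 against −0.02 over all genes. Without the first irradiated library of month 12 the direction turned, with 20 above, 24 below and a median of −0.03. The arms did not overlap in 5, all higher, against 15.5% of all genes. With the Gm26917 covariate the median was −0.07, and 12 lay above. Psmd10, a chaperone of cap assembly, was at 11.7, 10.03 and 10.8 CPM after irradiation and 7.88, 9.14 and 6.73 in controls, with no overlap (0.45 ± 0.16 SE, adjusted p = 0.209, edgeR). Psme4 was at 321, 300 and 261 CPM against 247.5, 224.5 and 198, again with no overlap (0.40 ± 0.16, adjusted p = 0.283, edgeR). The ATPase Psmc6 differed by 0.34 ± 0.15 (adjusted p = 0.318, edgeR).

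**Figure D3:**
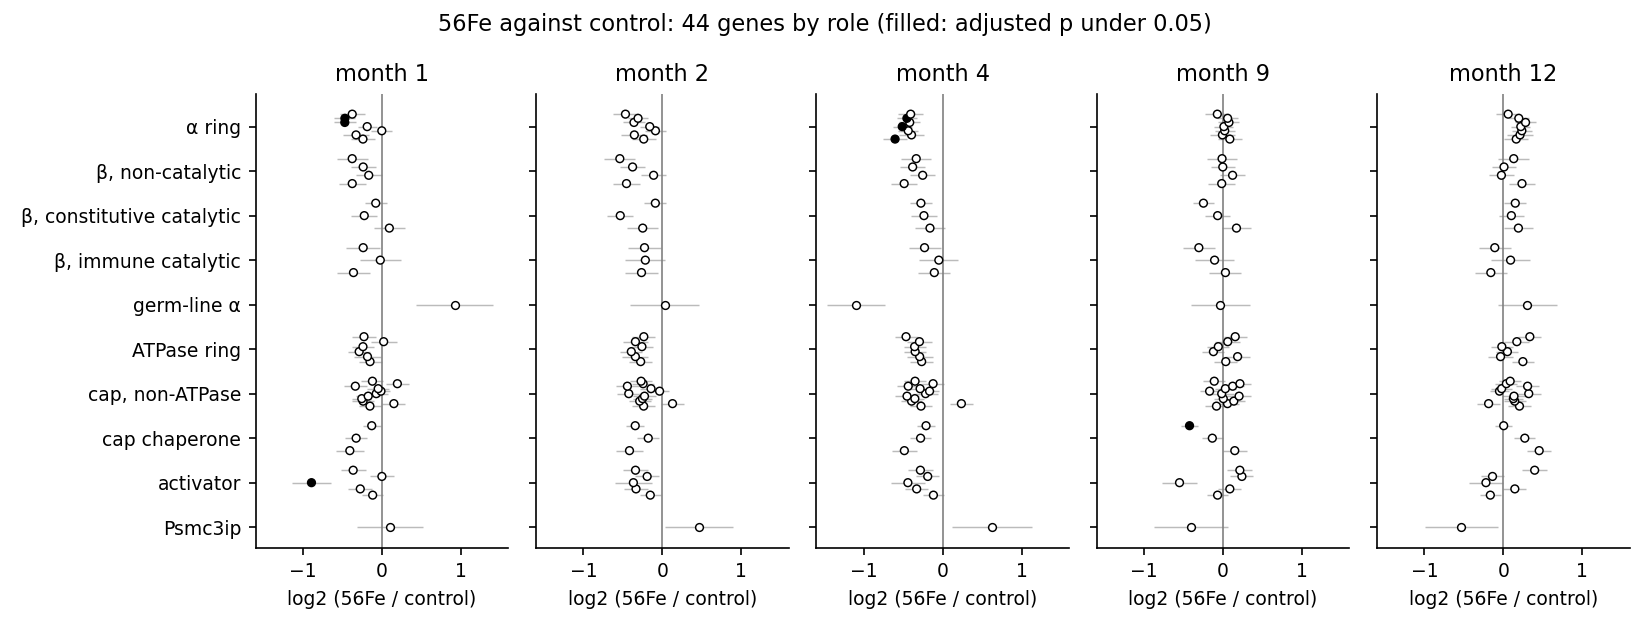
Log2 difference between irradiated and control livers at each month for the 44 genes, in rows by role. Bars are ± SE, filled points passed an adjusted p of 0.05 in edgeR. Most points lie left of 0 at months 1, 2 and 4 (38, 41 and 42 of 44), about evenly at month 9 (21) and right of 0 at month 12 (32, but 20 without the first irradiated library of that month).

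Averaged over the 5 months, 5 genes passed as lower and none as higher, where 2.81% of all genes passed as lower, 2.44% as higher and 5.26% in either direction. They were Psme2b (−0.49 ± 0.10 SE, adjusted p = 0.00557, edgeR), Psmd9 (−0.22 ± 0.05, adjusted p = 0.0111), Psma7 (−0.25 ± 0.07, adjusted p = 0.0325), the ATPase Psmc3 (−0.22 ± 0.06, adjusted p = 0.0389) and Psma6 (−0.20 ± 0.06, adjusted p = 0.0452). Psme2b and Psmd9 passed in all 30 fits that left out 1 library. Psma7 passed in 18 of the 30, Psmc3 in 12 and Psma6 in 7. With the Gm26917 covariate 2 genes passed, which were Psme2b and Psmd9, as did 0.747% of all genes. Leaving out the third control library of month 1 brought the count to 18, and the share of all genes to 11.5%.

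Psme2b lay below control at all 5 months and Psmd9 at 4 of 5, with a month 12 difference of 0.00. Psme2b was above the lowest control in no irradiated library at months 1, 4 and 9. At month 4 its libraries were at 3.70, 3.82 and 3.62 CPM against 5.04, 5.78 and 4.29, and at month 9 at 3.54, 2.78 and 2.81 against 4.83, 3.91 and 4.62. Its counts were few, from 12 to 86 per library. In all 5 genes lay below control at every month, Psmb9, Psmc4, Psmd3, Psme1 and Psme2b, and 19 at 4 of the 5 months. The constitutive cap subunit Psmd11 lay below control at only 1 of the 5 months, the fewest in the family.

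The irradiation effect differed between months in 7 of the 44 genes (F test in edgeR), against 11% of all genes. These were Psma4, Psma5, Psma6, the ATPase Psmc6, the cap subunit Psmd6, the chaperone Psmd10 and the activator Psme4. In each the effect lay below 0 at months 1, 2 and 4 and above 0 at months 9 and 12. For Psmd10 it ran −0.41, −0.42, −0.49, 0.15 and 0.45 at months 1, 2, 4, 9 and 12 (adjusted p = 0.0138, edgeR). For Psmd6 it ran −0.34, −0.44, −0.44, 0.12 and 0.31 (adjusted p = 0.023, edgeR). The test for Psmd10 passed in all 30 fits that left out 1 library. It passed in 29 for Psma5, 26 for Psmd6, 15 for Psma6, 13 for Psmc6, 12 for Psma4 and 6 for Psme4. With the Gm26917 covariate 0 of the 7 passed. For Psmb8, Psmb9 and Psmb10 the adjusted p of this test was 0.956, 0.982 and 0.802 (edgeR).

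The activators were not alike. Psme1 and Psme2, the subunits of PA28, differed between the arms by −0.17 to −0.07 and by −0.33 to 0.15 over the 5 months. Psme2 did not overlap between arms at month 4, at 39.2, 43.0 and 43.2 CPM after irradiation and 52.6, 51.7 and 53.4 in controls (−0.33 ± 0.15 SE, adjusted p = 0.205, edgeR). Psme3, the nuclear PA28 gamma, differed by −0.19 to 0.24. Psme4 ran from −0.37 ± 0.16 at month 1 through −0.34 ± 0.16, −0.28 ± 0.16 and 0.21 ± 0.16 to 0.40 ± 0.16 at month 12. Its effect differed between months (adjusted p = 0.0403, edgeR), a call that held in 6 of 30 fits that left out 1 library.

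Within the control arm, 5 genes passed as higher at month 2 than at month 1 and none as lower, where 5.75% of all genes passed as higher, 4.05% as lower and 9.8% in either direction. They were the ATPase Psmc5 (0.57 ± 0.16 SE, adjusted p = 0.0252, edgeR), the cap subunits Psmd7 (0.53 ± 0.14, adjusted p = 0.0178), Psmd2 (0.49 ± 0.15, adjusted p = 0.0403) and Psmd8 (0.46 ± 0.14, adjusted p = 0.034), and the activator Psme3 (0.47 ± 0.15, adjusted p = 0.0429). Psmc5 was at 40.8, 35.6 and 22.6 CPM at month 1 and 47.4, 53.45 and 46.1 at month 2. Psmd7, part of the deubiquitinating pair of the cap, was at 28.9, 22.6 and 21.7 CPM and then at 36.2, 33.5 and 36.2. Neither overlapped between the months. In all 16 of the 44 did not overlap, all higher, against 31.2% of all genes. Above 0 were 42 of the 44, with a median of 0.29 against 0.00 over all genes, and leaving out single libraries gave 0 to 12 calls. The 12 came without the first control library of month 1, where 9.02% of all genes passed. Without the third control library of month 1, the low one, none of the 5 passed, and the median was 0.11 with 38 above 0. In that fit 2.95% of all genes passed.

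In the irradiated arm between months 1 and 2, 0 members passed in edgeR, where 0.00508% of all genes passed, and DESeq2 called 1. An unadjusted p under 0.05 was reached by 7 of them and by 2386 of all genes. The direction was the same, with 40 of 44 above 0 and a median of 0.23, or 0.12 without the first irradiated library of month 1 and 0.14 without the second of month 2. The months did not overlap in 22, all higher, against 21.4% of all genes. The leading gene was Psma6, at 29.3, 34.4 and 23.6 CPM at month 1 and 38.8, 42.5 and 41.7 at month 2 (0.49 ± 0.13 SE, adjusted p = 0.158, edgeR). Psmb9 differed by 0.05 ± 0.21 and Psmb10 by −0.04 ± 0.21.

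From month 4 to month 9 most members lay below 0 in controls and above 0 in irradiated livers, and the difference in this step was not tested on its own. In controls 0 members passed in edgeR, where 0% of all genes passed, with 1 at an unadjusted p under 0.05 (1361 of all genes) and 0 calls in DESeq2, and 32 of 44 lay below 0 with a median of −0.12, or −0.04 without the third control library of month 4. The months did not overlap in 12, of which 11 were lower, against 15.8% of all genes. In irradiated livers 3 passed as higher and none as lower, where 2.38% of all genes passed as higher, 1.36% as lower and 3.74% in either direction. They were Psme3 (0.54 ± 0.15 SE, adjusted p = 0.0338, edgeR), Psmd14, the deubiquitinase of the cap (0.51 ± 0.15, adjusted p = 0.0469), and Psmd7 (0.48 ± 0.14, adjusted p = 0.0484). Psmd14 was at 60.5, 64.3 and 66.0 CPM at month 4 and 102, 81.9 and 88.0 at month 9. Psme3 was at 39.4, 35.5 and 40.2 and then at 56.55, 50.1 and 61.1, and neither overlapped between the months. In all 21 did not overlap, of which 1 was lower, against 23.5% of all genes. Leaving out single libraries gave 0 to 7 calls. The 7 came without the second irradiated library of month 9, where 8.74% of all genes passed. DESeq2 made 12 calls (11.1% of the genes it gave an adjusted p). With the Gm26917 covariate 0 passed, as did 0.447% of all genes.

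The comparison with the most calls was controls between months 9 and 12, where 20 of the 44 genes passed as lower and none as higher. Of all genes 5.78% passed as lower, 10.1% as higher and 15.9% in either direction. All 7 alpha-ring genes passed, with Psmb1, Psmb6 and Psmb7 of the beta ring, the ATPases Psmc1 and Psmc3, 5 of 11 other cap subunits and all 3 chaperones. Psmb7 was at 83.2, 85.6 and 88.0 CPM at month 9 and 59.45, 52.6 and 48.3 at month 12, and fell by 0.68 ± 0.14 on the log2 scale (SE, adjusted p = 0.0014, edgeR). Psmd10 was at 12.9, 11.9 and 13.1 CPM and then at 7.88, 9.14 and 6.73, and fell by 0.67 ± 0.15 (adjusted p = 0.00388, edgeR).

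Psma4 was at 116, 114 and 125 CPM at month 9 and 82.7, 72.35 and 74.2 at month 12, and fell by 0.63 ± 0.12 on the log2 scale (SE, adjusted p = 0.000819, edgeR). The next by size were Psmb1 (−0.62 ± 0.17, adjusted p = 0.0134, edgeR), Psma2 (−0.60 ± 0.16, adjusted p = 0.0114), Psmd2 (−0.60 ± 0.15, adjusted p = 0.00848), Psma3 (−0.56 ± 0.13, adjusted p = 0.00392) and Psmd5 (−0.53 ± 0.13, adjusted p = 0.00758). The libraries of the 2 months did not overlap in 33 of the 44 genes, all lower at month 12, against 33.7% of all genes. The median of the 44 was −0.40 against 0.04 over all genes, and 42 lay below 0.

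The immune subunits and Psme1 did not pass in this step. Psmb8 differed by −0.16 ± 0.24 (SE), Psmb9 by −0.19 ± 0.20, Psmb10 by −0.11 ± 0.20 and Psme1 by −0.02 ± 0.13 between months 9 and 12 in controls. In each the libraries of the 2 months overlapped, and whether these differences were smaller than those of the constitutive genes was not tested. Leaving out single libraries gave 11 to 24 calls in the family, the fewest without the third control library of month 9, where 8.72% of all genes passed. The most came without the first control library of month 12, where 16.8% of all genes passed. With no filter on low counts 6 passed, as did 4.27% of all genes. With the Gm26917 covariate 0 passed, as did 0% of all genes, and the median was −0.07, with 30 of 44 below 0. Gm26917 rose by 1.66 ± 0.22 on the log2 scale between these months in controls (adjusted p = 2.34e-05, edgeR), and its part in the fall was not tested.

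In irradiated livers the same step lay in the same direction and 0 members passed in edgeR, where 0.229% of all genes passed as lower, 0.0711% as higher and 0.3% in either direction. Below 0 were 39 of the 44, with a median of −0.31, and 22 had an unadjusted p under 0.05, as did 3184 of all genes. With the Gm26917 covariate the median was −0.16, with 37 below 0. The months did not overlap in 14, all lower, against 13.6% of all genes. DESeq2 called 3, and 3.86% of the genes it gave an adjusted p. Psme3 was at 56.55, 50.1 and 61.1 CPM at month 9 and 45.9, 36.3 and 35.3 at month 12 (−0.51 ± 0.15 SE, adjusted p = 0.0959, edgeR). Psma4 was at 136, 106 and 116 CPM and then at 106, 81.3 and 80.25 (−0.42 ± 0.12, adjusted p = 0.0969, edgeR). The difference between the arms in this step was not tested gene by gene.

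**Figure D4:**
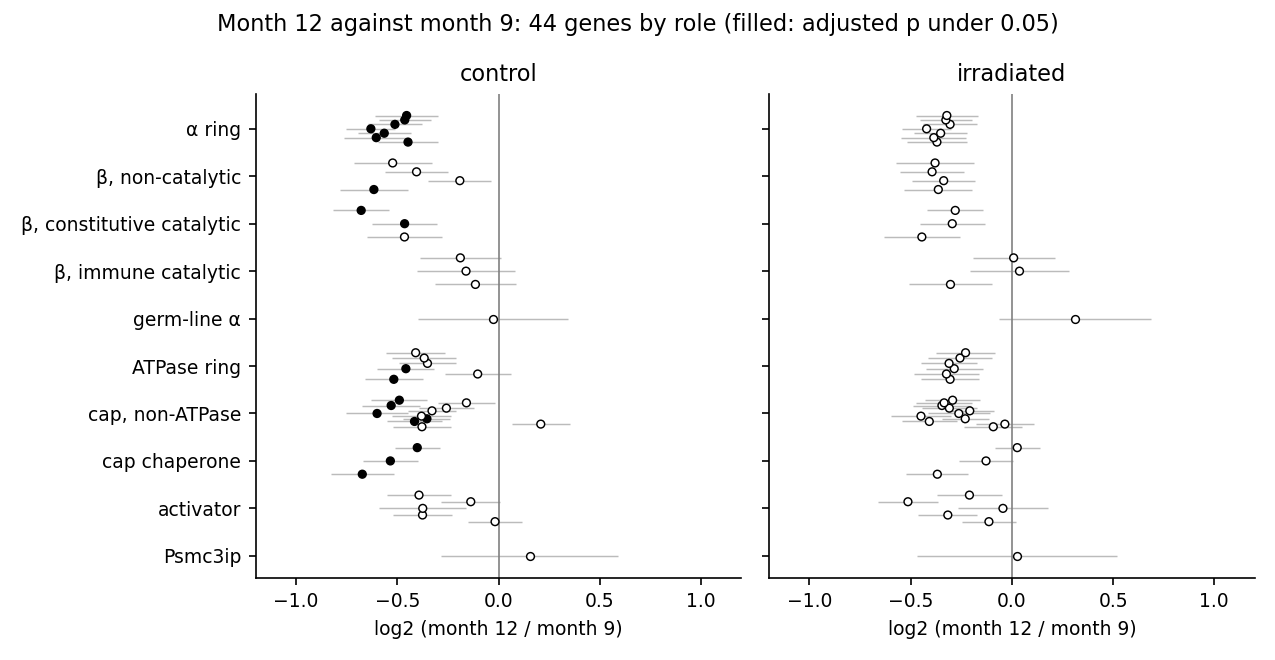
Log2 difference between month 12 and month 9 in control (left) and irradiated (right) livers for the 44 genes, in rows by role. Bars are ± SE, filled points passed an adjusted p of 0.05 in edgeR. In controls 20 points are filled, all left of 0, and in irradiated livers none is, while 39 of 44 lie left of 0.

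Among libraries of one group, the constitutive genes moved together and the immune subunits moved with each other. Over 30 libraries, each taken as its deviation from its group mean, the median constitutive gene correlated at r = 0.858 with the mean of the other constitutive genes, with a range of 0.419 to 0.965. Psmb1 was the closest at 0.965, and Psmd9 at 0.419 and Psmd10 at 0.496 were the farthest. The 3 immune subunits correlated at 0.759 to 0.822 with the mean of the other 2 and at 0.352 to 0.560 with the constitutive mean. With the immune mean, Psme1 correlated at 0.669 and Psme2 at 0.738, against 0.499 for Psme3 and 0.216 for Psme4. Psme1 and Psme2 correlated as closely with the constitutive mean, at 0.702 and 0.754. The constitutive genes ran from −0.028 to 0.675 (Psmc5) with the immune mean, with a median of 0.422. These correlations describe points that share library depth and makeup, and carry no p.

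**Figure D5:**
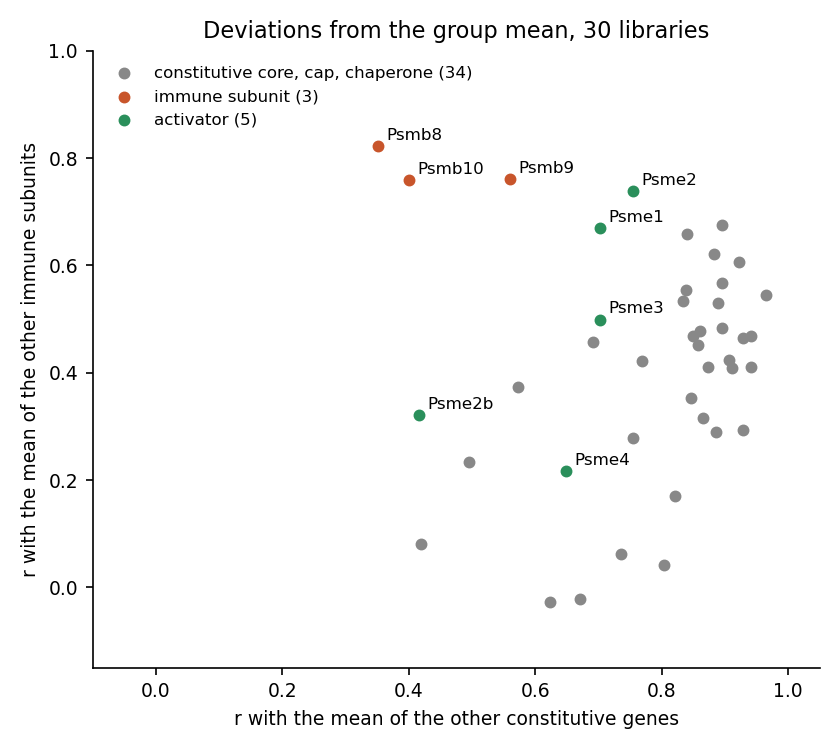
Correlation of each gene with the mean of the other constitutive genes (x axis) and with the mean of the other immune subunits (y axis), over 30 libraries as deviations from their group means. Each point is 1 gene. The immune subunits lie at 0.759 or above on the y axis and at 0.560 or below on the x axis.

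Genes that regulate, assemble or feed the proteasome were followed in lists. Of 9 regulators, 0 passed for irradiation at any single month, although the effect on Ngly1 differed between months (F test, adjusted p = 0.0397, edgeR). In controls Nfe2l1 (0.51 ± 0.17 SE, adjusted p = 0.0475, edgeR) and the protease that activates it, Ddi2 (0.65 ± 0.16, adjusted p = 0.00935), rose from month 1 to 2. Ngly1, which also processes Nfe2l1, fell from month 9 to 12 in controls (−0.41 ± 0.11, adjusted p = 0.00937, edgeR). Of the 8 measured assembly factors, 3 of which are the cap chaperones above, 5 fell in that step, with Psmg1 (−0.42 ± 0.13, adjusted p = 0.0228, edgeR) and Psmg2 (−0.59 ± 0.18, adjusted p = 0.0301) beside them. Of all genes 5.78% passed as lower there. In fits that left out a library, the call held in 1 of 6 for Nfe2l1, 5 of 6 for Ddi2, 6 of 6 for Ngly1, 3 of 6 for Psmg1 and 2 of 6 for Psmg2. None of 7 proteasome-associated proteins passed in any irradiation or time comparison.

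Of 6 ubiquitin-supply genes, Rps27a (0.88 ± 0.20 SE, adjusted p = 0.00633, edgeR) and the activating enzyme Uba6 (0.50 ± 0.15, adjusted p = 0.0336) rose in controls from month 1 to 2. Of 9 shuttle factors, which bring tagged proteins to the cap, Rad23b was lower after irradiation at month 4 (−0.54 ± 0.15, adjusted p = 0.0464, edgeR). Ubqln1 (0.65 ± 0.18, adjusted p = 0.0202) and Ubqln4 (0.63 ± 0.13, adjusted p = 0.0026, edgeR) rose in controls from month 1 to 2. From month 9 to 12 in controls Rad23b (−0.73 ± 0.15, adjusted p = 0.002) and Nsfl1c (−0.42 ± 0.11, adjusted p = 0.0102) fell and Ubqln2 rose (0.92 ± 0.20, adjusted p = 0.00265, edgeR). In fits that left out a library, the month 4 call of Rad23b held in 0 of 6, its fall with time and the calls of Ubqln2 and Ubqln4 in 6 of 6, those of Nsfl1c and Rps27a in 5, that of Ubqln1 in 4 and that of Uba6 in 2.

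Of 11 genes of class I antigen presentation, the chaperone Calr was higher after irradiation at month 1 (0.70 ± 0.19 SE, adjusted p = 0.0279, edgeR) and lower at month 4 (−0.79 ± 0.19, adjusted p = 0.0186). The peptide trimmer Erap1 was lower at month 1 (−0.50 ± 0.14, adjusted p = 0.0379, edgeR). Of 13 tested genes of interferon signalling, the receptor chain Ifngr2 was lower after irradiation at months 1 (−0.81 ± 0.21, adjusted p = 0.0247, edgeR) and 2 (−0.79 ± 0.21, adjusted p = 0.0318), and Irf1 was lower in the mean effect (−0.41 ± 0.09, adjusted p = 0.0123). Nlrc5, an activator of class I genes, was at 32.1, 90.35 and 38.25 CPM in month 12 controls and 27.2, 28.9 and 24.9 at month 9 (0.99 ± 0.34, adjusted p = 0.0493, edgeR). Without the second control library of month 12 the difference was 0.36 ± 0.30 (adjusted p = 0.495, edgeR). For irradiation, the calls of Ifngr2 held in 1 of 6 fits that left out a library at month 1 and 0 of 6 at month 2, those of Calr in 3 of 6 at month 1 and 3 of 6 at month 4, and that of Erap1 in 2 of 6. Ifngr2 also passed in the mean effect, a call that held in 27 of 30 fits that left out a library. The call of Irf1 held in all 30. Among cell type markers, the B cell gene Ms4a1 fell in controls from month 1 to 2 (−1.84 ± 0.46, adjusted p = 0.0109, edgeR), a call that held in 3 of 6 fits that left out a library. The macrophage gene Marco was at 3.66, 265 and 11.6 CPM in month 12 controls and 5.16, 5.51 and 2.80 at month 9 (4.37 ± 1.28, adjusted p = 0.0252, edgeR). Its call rests on the second control library of month 12, without which the difference was 0.75 ± 1.03 (adjusted p = 0.711, edgeR).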

How the data were processed

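Paired-end reads of ribosome-depleted liver RNA were aligned with STAR 2.5.3a to GRCm38 and counted per gene with Gencode M14 annotation, per the labels' design text and the submitters' processing notes. The deposited table holds these raw counts. Its 51826 gene identifiers were matched to Gencode M21 on the same build (51633 matched). Members and gene lists were chosen with earlier results of these data known. Counts were fitted with edgeR 4.0.16 (R 4.3.3), quasi-likelihood with robust dispersion, TMM factors, filterByExpr with a minimum count of 10, and 1 coefficient per group over all 30 libraries. P-values were Benjamini-Hochberg adjusted over 19685 genes, and an adjusted p below 0.05 passed. CPM per kb divides by the merged exon length in M21. Fits were checked on simulated data. For 56Fe against control at month 4 they recovered 19.4% of changes of 1.5 times, 64.2% of 2 times and 89.4% of 4 times. A gene that did not pass may thus still differ by a small amount. Replicates are labelled biological, with no further source given, so p-values measure the spread between these livers. No 2 libraries of a group were duplicates by chi-square (at least 8.43 per gene).

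The genes named were the 3 immune subunits and their partners, Psme1 to Psme4, up to 8 members passing per comparison by size of change (or the 3 with the smallest p), the members with the highest and lowest CPM, up to 4 passing genes per list, and Arntl and Dbp. Further members are named to account for counts. Some list genes are not reported here, and not every other passing list gene is named: over time in controls, H2-K1, Calr, Pdia3, Psmg1, Pecam1, Lyve1, 9 clock genes (month 2 against 1), and Pdia3, Clec4g, Reln and Per1 (month 12 against 9) also passed, and Uba6 and Ifngr1 in irradiated livers (month 9 against 4). For irradiation, 12 of 19 clock genes passed for irradiation at month 1, 5 at month 2 and none at months 4, 9 and 12. Of the marker lists, Dcn passed in the mean effect, and none of the 6 hepatocyte, 7 macrophage and 3 tested neutrophil markers for irradiation.

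Replicate numbers are shared between arms. Deviations of same-numbered libraries correlated at −0.384 to 0.346 over 15 pairs, and only at month 12 were all 3 pairs above 0.1. By that cut the numbers were taken to pair livers at month 12 alone, and another rule could choose otherwise. At month 4 each control library correlated best with its own number, at 0.099, 0.075 and 0.114. At month 12 the first did not, at 0.186 against 0.233 with another number. Alternatives were RLE and upper quartile factors, no filter, a filter of 1 CPM in 3 libraries, DESeq2 1.42.0, limma 3.58.1 voom with sample weights, the replicate block, the Gm26917 covariate, only the libraries compared, and leaving out each library, which was extended to the list genes after seeing the data.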

Additional observations from a re-analysis of the deposited data

Results flagged for a closer look

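The irradiation effect differed between the 5 months for 7 members by a test of the difference itself (F test in edgeR, adjusted over all genes), a test that 11% of all genes passed. The adjusted p was 0.0379 for Psma4, 0.0209 for Psma5, 0.0293 for Psma6, 0.0409 for Psmc6, 0.0138 for Psmd10, 0.023 for Psmd6 and 0.0403 for Psme4. Of the 30 fits that left out 1 library, the test passed in all for Psmd10, 29 for Psma5 and 26 for Psmd6. It passed in 15 for Psma6, 13 for Psmc6, 12 for Psma4 and 6 for Psme4. Groups held 3 libraries, too few for the check for single outlying samples.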

How the results depend on the processing

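Counts of members passing moved by over 1.5 times in the following fits, and the cause was not tested. At month 1 (3 in the report) the count was 0 with upper quartile factors, with no filter, with the Gm26917 covariate and with only the libraries compared, 1 with the stricter filter and 10 with voom. At month 2 (0) it was 1 with upper quartile factors, no filter and the stricter filter, 2 with DESeq2, 13 with voom, 4 with the replicate block and 12 with only the libraries compared. At month 4 (3) it was 9 with RLE and the stricter filter, 1 with no filter, 12 with DESeq2, 18 with voom, 6 with the replicate block, 0 with the covariate and 14 with only the libraries compared. At month 9 (1) it was 0 with RLE, no filter, the replicate block, the covariate and only the libraries compared. For the mean effect (5) it was 3 with upper quartile factors, 2 with no filter and the covariate, 21 with voom and 8 with the replicate block. For the difference between months (7) it was 2 with no filter, 14 with DESeq2, 12 with voom and 0 with the covariate. The share of all genes passing that test was 11% in the report. It was not kept for the other fits, including those that left out a library, so these counts have no background beside them. For control month 2 against 1 (5) it was 3 with no filter, 10 with the covariate and 1 with only the libraries compared. For irradiated month 2 against 1 (0) it was 1 with DESeq2 and voom. For irradiated month 9 against 4 (3) it was 6 with RLE, 0 with no filter, the covariate and only the libraries compared, 8 with the stricter filter and voom, and 12 with DESeq2. For control month 12 against 9 (20) it was 6 with no filter and 0 with the covariate. For irradiated month 12 against 9 (0) it was 3 with DESeq2. The share of all genes passing also differed between these fits. At month 2 it was 4.37% in the report, 9.09% with DESeq2, 18.6% with voom, 6.74% with the replicate block and 18.5% with only the libraries compared. At month 4 it was 3.6% in the report, 8.85% with DESeq2, 10.2% with voom, 3.9% with the replicate block, 12% with only the libraries compared and 0.00508% with the covariate. At month 1 it was 4.6% in the report, 10.2% with voom and 0.574% with the covariate, and for the mean effect 5.26%, 13.6% with voom and 0.747% with the covariate. For control month 12 against 9 it was 15.9% in the report, 4.27% with no filter and 0% with the covariate. For irradiated month 9 against 4 it was 3.74% in the report, 11.1% with DESeq2, 7.48% with voom and 0.447% with the covariate. For control month 2 against 1 it was 9.8% in the report, 2.92% with no filter and 12% with the covariate. DESeq2 shares are of the genes it gave an adjusted p.

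Leaving out 1 library gave 0 to 16 at month 1, 0 to 0 at months 2 and 12, 0 to 3 at month 4, 0 to 1 at month 9, 2 to 18 for the mean effect, 1 to 17 for the difference between months, 0 to 12 for control month 2 against 1, 0 to 7 for irradiated month 9 against 4, 11 to 24 for control month 12 against 9, 0 to 4 for irradiated month 12 against 9, and 0 to 0 for irradiated month 2 against 1 and control month 9 against 4. The counts of 16, 18 and 17 came without the third control library of month 1, and the 1 without the first irradiated library of month 12. Psmb6 at month 2 passed in 7 of the other fits, at −0.57 to −0.46. The replicate block changed no call at month 12, where 0 passed. At the other months the shared number was not taken to pair livers. Over all 5 months 7 of 15 pairs correlated best with their own number. Among the members, the direction of single genes was followed across these fits only for the catalytic subunits at single months, none of which had passed. For members that had passed, a change of direction was not checked gene by gene. Depth limits Psme2b, with 12 to 86 counts per library.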
